A study of Rattus norvegicus with 18 samples.

Results

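The comparison described here sets gene expression in the rat nucleus accumbens against that in the prefrontal medial cortex. It was chosen by brain area and not by strain: 12 of the 18 two-colour arrays of the series carry these areas, and their 24 dye channels hold 12 RNA pools, 6 per area. Each pool combined the total RNA of 3 rats in equal parts; all were alcohol-naive males killed by decapitation. In each area 3 pools came from WHP rats and 3 from WLP rats, strains selected for high and low ethanol preference, so no rat of an unselected strain is among them. A WHP pool and a WLP pool of the same area were hybridised together and again with the dyes swapped, which makes 3 pool pairs per area. The labels do not say whether the accumbens and the prefrontal pools came from the same rats or how the tissue was dissected. The p-values therefore measure the spread between these pools.

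The nucleus accumbens is the ventral part of the striatum. Nearly all of its neurons are GABAergic spiny projection neurons that carry dopamine D1 or D2 receptors and make opioid or tachykinin peptides, with scattered cholinergic and other interneurons. The medial prefrontal cortex consists mostly of glutamatergic pyramidal neurons arranged in layers, and its axons are an input of the accumbens. Both areas are central to work on reward and alcohol drinking. In whole tissue, fewer cells of a type and less RNA per cell cannot be told apart.

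Levels are log2 intensities of a probe, a 60-base oligonucleotide on the array, averaged over the dye-swapped channels of a pool. Differences are accumbens minus prefrontal on the log2 scale, with their standard error and, after Benjamini-Hochberg adjustment over all 29679 probes tested, limma's p. An array had 28670 to 31889 green and 31207 to 34446 red spots well above background, and 93.7% of the probes tested were detected in both areas. Pools of the accumbens correlated with each other at 0.99 to 0.996 across probes, pools of the prefrontal cortex at 0.992 to 0.998, and pools of different areas at 0.974 to 0.987. The areas differed widely and mostly by small amounts. Of the probes tested, 14193 (47.8%) passed an adjusted p of 0.05, with 7227 (24.4%) higher in the accumbens and 6966 (23.5%) higher in the prefrontal cortex. Over 2-fold were 246 (0.829%) and 322 (1.08%). With 1 probe per gene, 6118 of 12831 genes passed (47.7%), 2838 (22.1%) higher in the accumbens and 3280 (25.6%) higher in the prefrontal cortex. The median absolute difference over all genes was 0.17. More than 2-fold were 99 genes higher in the accumbens (0.772% of those tested) and 188 higher in the prefrontal cortex (1.47%). Without any overlap between the 6 pools of one area and the 6 of the other were 1384 genes higher in the accumbens (10.8%) and 2004 higher in the prefrontal cortex (15.6%). The share of called probes that were higher in the accumbens was 50.9% here. It became 34% or 67.2% when outlying background readings of the arrays were replaced and each array was centred on its median or each channel on its 75th percentile. The last of these moved the median difference of all probes tested from 0.011 to 0.109. The direction of small differences is therefore relative to the scaling.

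Markers of cortical excitatory neurons had the lowest median of the lists compared. Of the 19 tested, 17 were higher in the prefrontal pools, 1 was higher in the accumbens and 1 was not called, against 25.6% of all genes called higher in the prefrontal cortex. The list median was -1.45, beside -0.008 for all genes. Slc17a7, the vesicular glutamate transporter of most cortical projection neurons, was measured by a probe on chromosome 1 at 95652309 to 95652368 (rn4). Its levels in the accumbens were 9.87, 7.52 and 9.38 in the WHP pools and 8.06, 8.73 and 9.28 in the WLP pools. In the prefrontal cortex they were 12.09, 11.3 and 12.05 in WHP and 11.25, 11.89 and 12.09 in WLP. Every prefrontal pool lay above every accumbens pool, and the accumbens pools spread more. The difference was -2.97 ± 0.39 (SE, n = 6 pools per area), or 7.85-fold, with adjusted p = 0.000104. A second, dimmer probe of this gene gave -1.62.

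Neurod6, a transcription factor of cortical pyramidal neurons, had levels of 7.75, 7.25 and 7.84 in the WHP accumbens pools and 7.12, 8.27 and 8.1 in the WLP ones. The prefrontal pools stood at 11.14, 10.11 and 10.84 in WHP and 9.99, 10.74 and 10.79 in WLP. The groups were separate, with a difference of -2.88 ± 0.27 (7.37-fold, adjusted p = 1.49e-05). Fezf2, which specifies deep-layer subcortical projection neurons, ranged from 7.27 to 8.66 in the accumbens and from 9.98 to 10.91 in the prefrontal cortex, a difference of -2.75 ± 0.27. The highest accumbens value of Fezf2 was that of the second WLP pool. Neurod2, another neurogenic factor of cortical excitatory neurons, differed by -2.54 ± 0.31. Cck, the cholecystokinin precursor that cortical neurons make in large amounts, stood at 12.16 to 13.14 in the accumbens and 14.69 to 15.64 in the prefrontal cortex, a difference of -2.44 ± 0.21. Its receptor gene Cckbr was also higher in the prefrontal pools, at -1.78 ± 0.18.

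Members with dim probes had smaller differences. Tbr1 and Emx1, factors of the pallium and its deep layers, had differences of -0.42 ± 0.05 and -0.30 ± 0.06, with mean levels between 6.29 and 6.76 in both areas. Both passed the test without overlap of pools. An offset of 50 was added to every intensity, which compresses the differences of probes as dim as these. With an offset of 10 Tbr1 had -0.84 and Emx1 -0.65, and from the scanner's processed signals -2.26 and -2.31. With outlying backgrounds replaced and each channel scaled to its 75th percentile they had -0.32 and -0.21, and Emx1 was not called (limma's adjusted p = 0.0564). Neither probe passed the filter for detection in both areas, so the size of these differences is uncertain. Of the 181 named genes called, 9 had a difference over 1.5 times larger with that offset, and 31 with the processed signals. The exception in the list was Slc17a6, the vesicular glutamate transporter of thalamic and other subcortical neurons. It was higher in the accumbens, with levels of 11.39, 11.92 and 12.24 in WHP and 12.13, 11.52 and 11.27 in WLP. The prefrontal pools had 9.59, 10.61 and 9.95 in WHP and 10.51, 9.84 and 10.08 in WLP, giving a difference of 1.65 ± 0.24 (3.14-fold, adjusted p = 0.000208). Lmo3, named after its values were seen because it alone of the list was not called, had -0.10 ± 0.17.

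**Figure D1:**
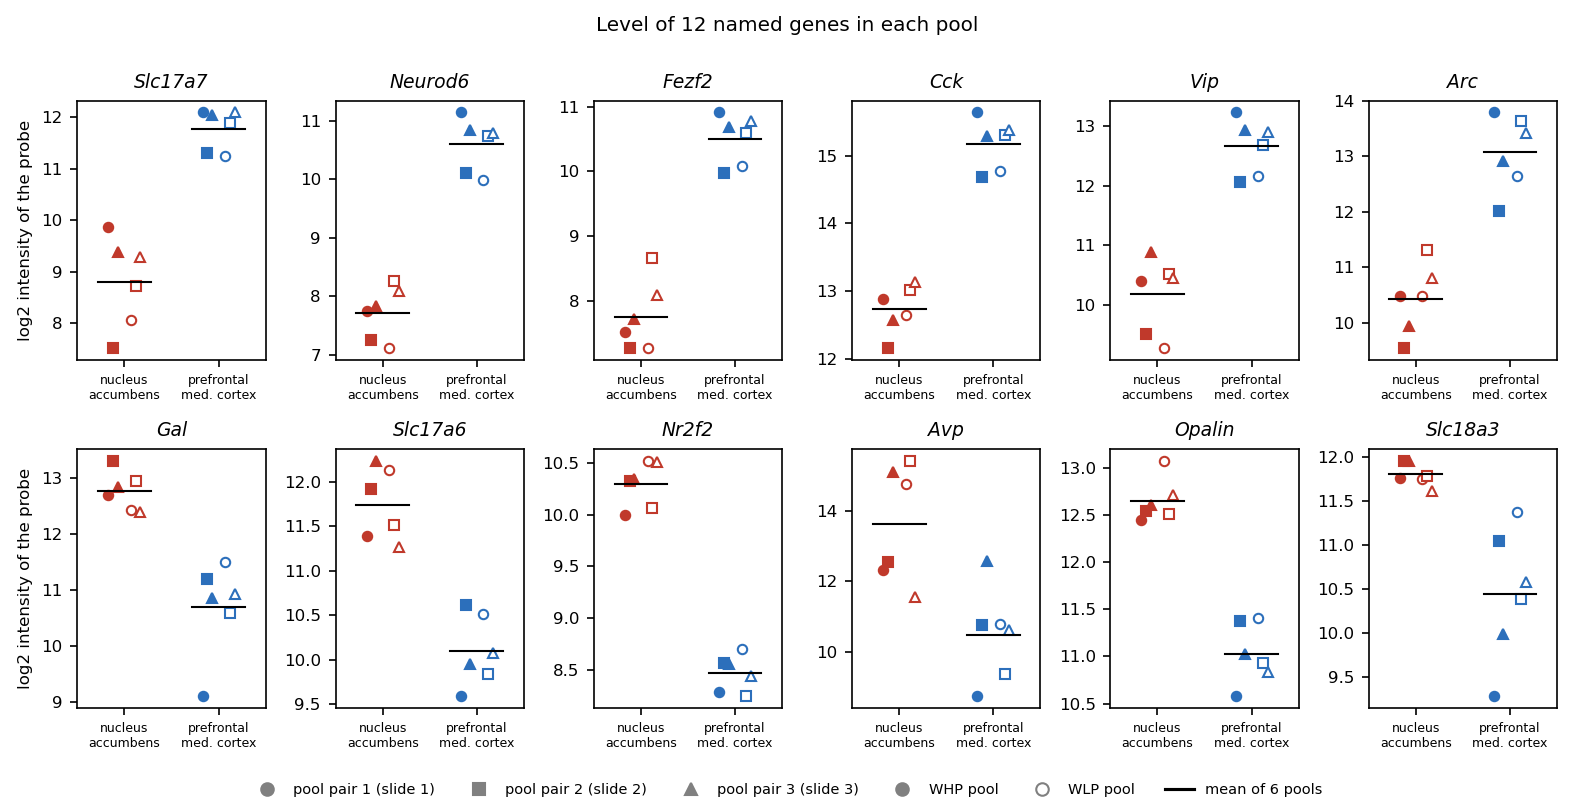
Level of 12 named genes (log2 intensity of the probe, one panel per gene) in the 6 nucleus accumbens pools (red) and the 6 prefrontal medial cortex pools (blue); symbols mark the pool pair and slide, filled for WHP and open for WLP, and the black line is the mean of 6 pools. The areas do not overlap in any panel but Avp, where the third WHP prefrontal pool at 12.59 lies above 3 accumbens pools. The rule for named genes picks some of them for having no overlap, so the separation drawn here is partly by choice. Of all genes, 10.8% had no overlap with the accumbens higher and 15.6% with the prefrontal cortex higher.

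Of 15 genes that mark layers within the cortex, 6 were higher in the prefrontal cortex, 3 were higher in the accumbens and 6 were not called (25.6% and 22.1% of all genes were called in these directions), with a median of -0.15. The prefrontal count was 2 without prefrontal pair 3 and 3 without slide 2. Rasgrf2, a Ras exchange factor of upper layers, differed by -0.75 ± 0.09, and Nr4a2, an orphan nuclear receptor of the deepest layer, by -0.67 ± 0.22. The Nr4a2 call was lost in 6 of the 7 fits that left out a pool pair or slide 2 (adjusted p up to 0.158, without slide 2). Tle4, a corepressor of corticothalamic neurons, differed by -0.38 ± 0.07. Pcp4, a calmodulin-binding protein of deep layers and of striatal neurons, was higher in the accumbens by 0.82 ± 0.18.

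The labelled tissue was checked against the markers of striatal projection neurons, and these did not separate the areas. Of the 19 markers tested, 17 were not called, 1 was higher in the accumbens (Rasgrp2, a Rap exchange factor, 0.68 ± 0.18) and 1 was higher in the prefrontal cortex (Actn2, an actin cross-linker, -0.31 ± 0.10). Actn2 was not called in 4 of the 7 fits with a pool pair or slide 2 left out (adjusted p up to 0.116, without prefrontal pair 1). Of all genes, 22.1% were called higher in the accumbens and 25.6% higher in the prefrontal cortex. The list median was 0.13. Drd1, the dopamine D1 receptor gene, had levels of 7.65, 6.77 and 7.32 in the WHP accumbens pools and 7.54, 7.21 and 7.22 in the WLP ones. The prefrontal pools had 7.3, 7.86 and 7.45 in WHP and 7.71, 7.52 and 7.02 in WLP. The areas overlapped, and the highest level of Drd1 belonged to a pool labelled prefrontal. The difference was -0.19 ± 0.17, with a 95% interval from -0.57 to 0.18 (adjusted p = 0.381).

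Adora2a, the adenosine receptor gene that marks D2 neurons, had levels of 10.39, 8.82 and 10.22 in WHP and 10.93, 9.96 and 10.2 in WLP accumbens pools. In the prefrontal pools its levels were 8.98, 10.37 and 9.7 in WHP and 10.38, 9.84 and 8.81 in WLP. The second WHP pool of the accumbens was as low as the lowest prefrontal pools, and 2 prefrontal pools, at 10.37 and 10.38, came close to the second-highest accumbens pool. Its difference was 0.41 ± 0.38 (95% interval -0.42 to 1.23, adjusted p = 0.403). Drd2, the D2 receptor gene, differed by 0.11 ± 0.10; it was called at 0.28 (adjusted p = 0.0374) with outlying backgrounds replaced and each channel scaled to its 75th percentile. Ppp1r1b, which encodes the dopamine-regulated phosphatase inhibitor DARPP-32, differed by 0.18 ± 0.28. Penk, the enkephalin precursor, differed by 0.57 ± 0.28 (95% interval -0.03 to 1.17) and was called higher in the accumbens without prefrontal pair 2 (0.78, adjusted p = 0.0383) or slide 2 (0.98, adjusted p = 0.022). A dimmer Penk probe gave 0.00. Intervals this wide do not show that the areas were alike, since a difference of 1 log2 unit in favour of the accumbens lies within those of Adora2a and Penk.

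The mean level of these 19 markers, expressed above the median probe of the pool, was 2.56, 1.57 and 2.31 in the WHP and 2.87, 2.33 and 2.34 in the WLP accumbens pools. In the prefrontal pools it was 1.85, 2.6 and 2.06 in WHP and 2.59, 2.35 and 1.74 in WLP. The medians were 2.34 and 2.2, so the prefrontal-labelled pools carried this set at nearly the level of the accumbens pools. With each array centred on its median instead, the 6 hippocampus pools of the series, scanned in another session on other slides, had 0.64 to 1.19. The prefrontal pools then had 1.54 to 2.71 and the accumbens pools 1.58 to 2.88. This scaling kept the deposited backgrounds, and with it only 12 probes were called between the 2 areas. Hippocampus arrays were also brighter, with median green intensities of 154.9 to 208.7 against 78.15 to 100.4. Slide 2 carried both the lowest accumbens pool (1.57) and the highest prefrontal pool (2.6). The median of the list was -0.55 on that slide against 0.46 and 0.55 on slides 1 and 3. Without slide 2 the list median was 0.52 and 5 markers were called higher in the accumbens, among them Penk at 0.98 ± 0.26. The cause of the slide's difference was not tested.

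**Figure D2:**
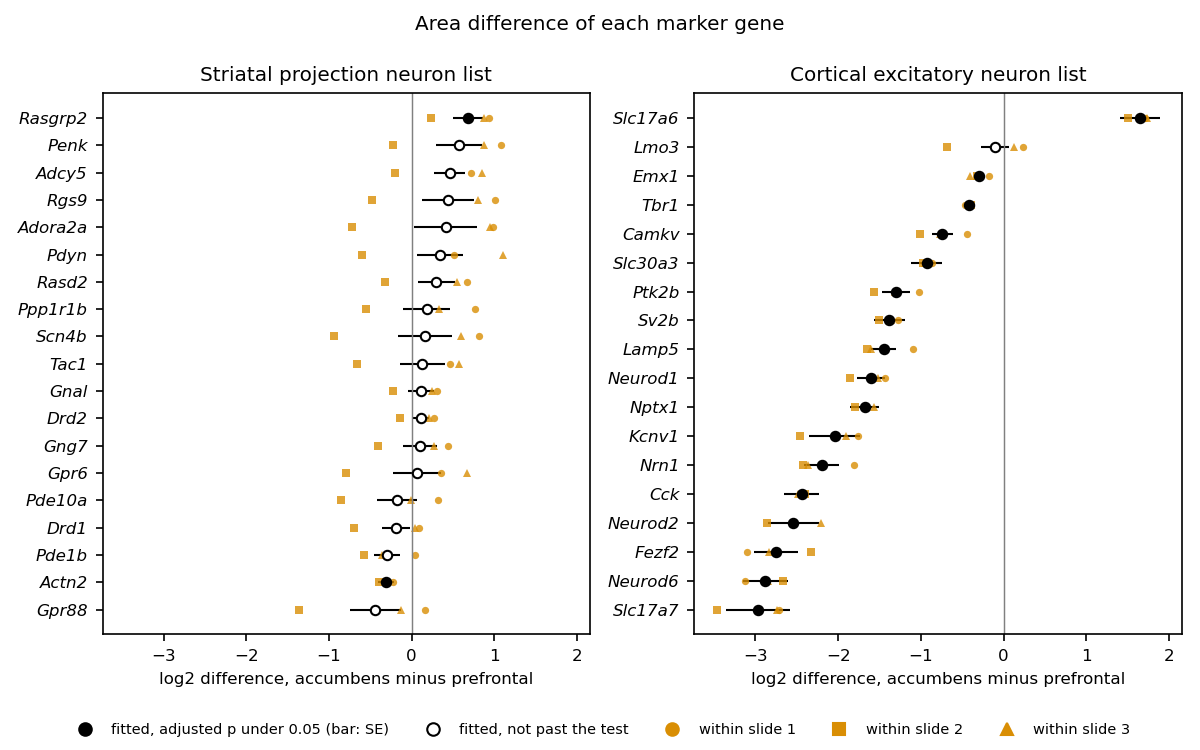
Log2 difference (accumbens minus prefrontal) of each tested marker of striatal projection neurons (left) and cortical excitatory neurons (right, without 1 member that is not reported here); black points are the fitted difference with its SE, filled where the adjusted p was under 0.05, and orange symbols are the differences within slides 1, 2 and 3. Striatal markers lie near 0 with slide 2 to the left of the other slides for most genes, while the fitted differences of the cortical markers drawn lie below 0 apart from Slc17a6, which stands at 1.65.

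Most genes known for the ventral striatum were higher in the accumbens, though the areas overlapped in the mean level of the list (1.18 to 1.61 in the accumbens, 0.34 to 1.23 in the prefrontal cortex). Of 10 tested, 7 were higher in the accumbens and none was higher in the prefrontal cortex, against 22.1% of all genes higher in the accumbens, and the median was 0.58. Calcr, the calcitonin and amylin receptor of the accumbens shell, stood at 11.3, 12.08 and 11.51 in WHP and 10.69, 11.52 and 10.91 in WLP accumbens pools. The prefrontal pools had 8.35, 10.54 and 9.76 in WHP and 10.66, 9.85 and 9.84 in WLP. The areas just failed to meet, 10.69 against 10.66, and the difference was 1.5 ± 0.40 (2.83-fold, adjusted p = 0.00869). Nts, the neurotensin precursor, was higher by 1.09 ± 0.35, Peg10, an imprinted retrotransposon-derived gene, by 1.05 ± 0.10, and Zic1, a transcription factor of ventral forebrain, by 1.00 ± 0.22. Drd3, Stard5 and Cartpt were not called and are named after their values were seen. Drd3, the D3 dopamine receptor gene, differed by 0.05 ± 0.04 and Cartpt, a peptide precursor regulated by psychostimulants, by -0.14 ± 0.33. Without slide 2, 4 of the 10 were called; the adjusted p of Calcr was then 0.0504, and Nts was lost in 4 of 7 such fits (up to 0.103, without prefrontal pair 3).

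Striatal transcription factors pointed both ways. Of 15 tested, 5 were higher in the accumbens (3 without prefrontal pair 3) and 2 in the prefrontal cortex. The shares of all genes in these directions were 22.1% and 25.6%. Zfhx3, a homeodomain factor, differed by 1.1 ± 0.17 and Ebf1, a factor of D1 neurons, by 0.87 ± 0.12. Isl1, which acts in D1 and cholinergic neurons, differed by 0.65 ± 0.20, and Dlx5, a factor of GABAergic precursors, by 0.63 ± 0.19. Dlx5 lost its call without prefrontal pair 3 (adjusted p = 0.0872), and Isl1 in 4 of 7 fits with a pair or slide 2 left out (up to 0.0768, without accumbens pair 2). Foxp1 and Meis2, both abundant in striatal projection neurons and present in cortex, were higher in the prefrontal pools, at -0.52 ± 0.12 and -0.43 ± 0.11. Both had accumbens pools that reached into the prefrontal range.

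Markers of forebrain cholinergic neurons were all higher in the accumbens: 10 of 10 were called, against 22.1% of all genes. The median was 0.86. Slc18a3, the vesicular acetylcholine transporter, had levels of 11.76, 11.95 and 11.96 in WHP and 11.75, 11.79 and 11.61 in WLP accumbens pools. The prefrontal values were 9.28, 11.04 and 9.99 in WHP and 11.38, 10.39 and 10.58 in WLP, lower and far more scattered. Its difference was 1.36 ± 0.32 (2.56-fold, adjusted p = 0.00386). Ngfr, the low-affinity neurotrophin receptor, differed by 1.09 ± 0.24, and Ache, acetylcholinesterase, by 0.99 ± 0.20. A dimmer Ache probe gave -0.11. Leaving out a pool pair changed the count of called members. It was 5 without prefrontal pair 3, 6 without accumbens pair 2, and 7 without accumbens pair 1, accumbens pair 3, prefrontal pair 2 or slide 2.

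Peptides of the hypothalamus and neighbouring regions had the largest accumbens differences of any listed gene. Of 18 markers of septum, thalamus and hypothalamus, 12 were higher in the accumbens, against 22.1% of all genes. None was higher in the prefrontal cortex, and the median was 0.52. Avp, the vasopressin precursor, had levels of 12.32, 12.55 and 15.12 in WHP and 14.77, 15.44 and 11.56 in WLP accumbens pools. The prefrontal pools had 8.74, 10.76 and 12.59 in WHP and 10.8, 9.36 and 10.63 in WLP. Levels varied by more than 3 log2 units within each area and the areas overlapped. The difference was 3.14 ± 0.90 (8.84-fold, adjusted p = 0.0125), and it missed the threshold without prefrontal pair 1 (adjusted p = 0.0563) or without slide 2 (adjusted p = 0.0924). Oxt, the oxytocin precursor, lies next to Avp in the genome and is made by other neurons of the same hypothalamic nuclei. Its levels were 13.29, 13.43 and 14.43 in WHP and 14.42, 14.62 and 12.4 in WLP accumbens pools. In the prefrontal pools they were 8.55, 12.3 and 12.56 in WHP and 12.37, 10.34 and 10.52 in WLP. The difference was 2.66 ± 0.77 (adjusted p = 0.0134; 0.0782 without slide 2).

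Gal, the galanin precursor, separated the areas fully. Accumbens pools had 12.69, 13.31 and 12.83 in WHP and 12.43, 12.94 and 12.39 in WLP. Prefrontal pools had 9.1, 11.19 and 10.86 in WHP and 11.49, 10.58 and 10.92 in WLP, with the first WHP pool lowest, as it was for Avp and Oxt. The difference was 2.08 ± 0.38 (4.22-fold, adjusted p = 0.000851). Trh, the thyrotropin-releasing hormone precursor, was higher in the accumbens by 1.14 ± 0.36, with overlap, and was not called in 4 of 7 fits with a pair or slide 2 left out (adjusted p up to 0.154, without slide 2). Pmch, the precursor of melanin-concentrating hormone, is outside the rule for named genes; it differed by 1.03 ± 0.15 without overlap. Leaving out a pool pair or slide 2 left 7 (without slide 2) to 13 (without accumbens pair 1) of the 18 called. The part of neighbouring tissue in these values was not tested.

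**Figure D3:**
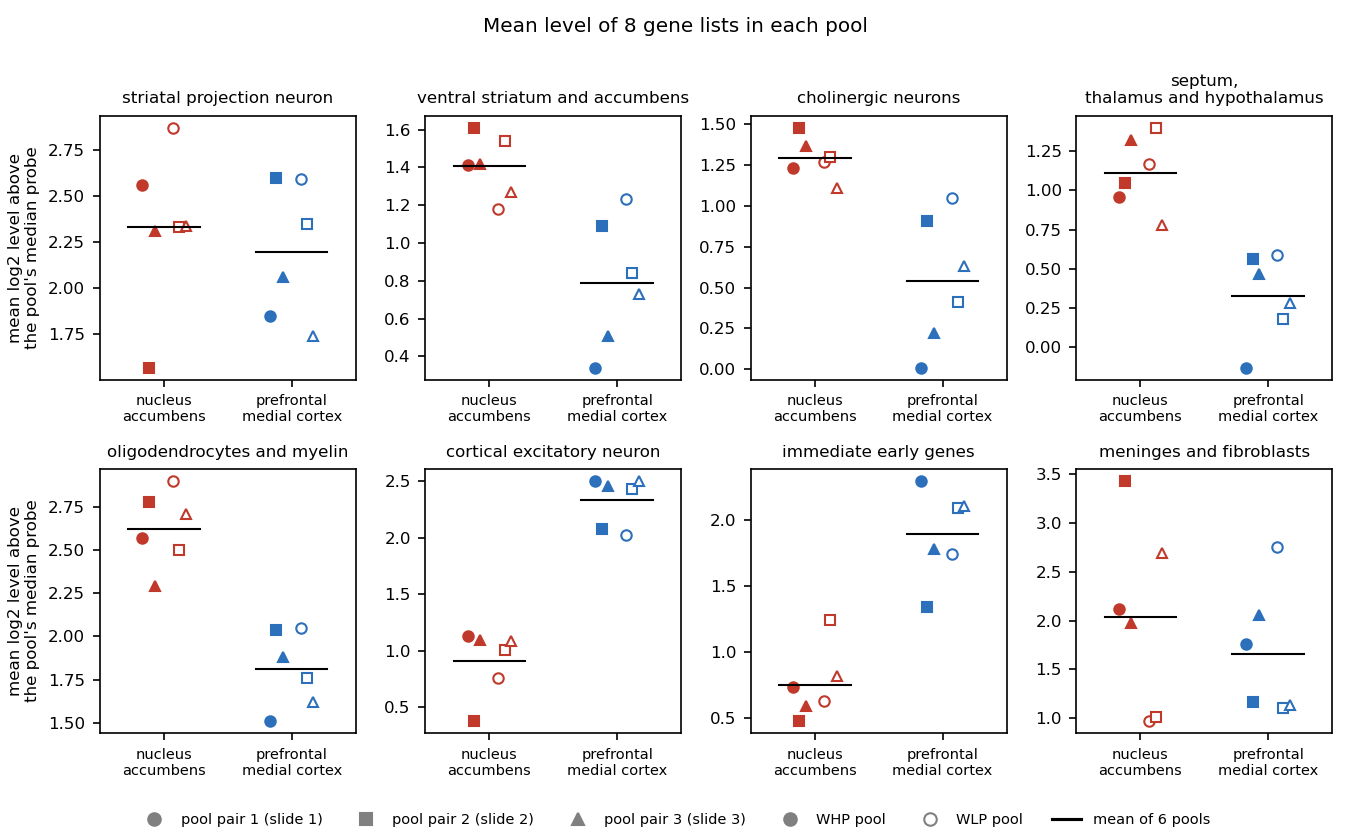
Mean level of 8 gene lists in each pool, in log2 units above the median probe of that pool (one panel per list); red marks accumbens and blue prefrontal pools, symbols the pool pair and slide, filled WHP and open WLP, and the black line the mean of 6 pools. Cortical excitatory markers span 0.38 to 1.13 in the accumbens and 2.02 to 2.50 in the prefrontal cortex, whereas striatal projection neuron markers span 1.57 to 2.87 and 1.74 to 2.60 and meningeal genes 0.97 to 3.43 and 1.1 to 2.75.

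Genes of oligodendrocytes and myelin were higher in the accumbens. Of 19 tested, 16 were called higher in the accumbens, against 22.1% of all genes. None was higher in the prefrontal cortex, and all 19 differences were positive, with a median of 0.79. Opalin, a membrane protein of mature oligodendrocytes, had levels of 12.45, 12.54 and 12.61 in WHP and 13.08, 12.51 and 12.71 in WLP accumbens pools. Prefrontal pools had 10.58, 11.38 and 11.03 in WHP and 11.41, 10.93 and 10.84 in WLP, well below. The difference was 1.62 ± 0.16 (3.08-fold, adjusted p = 1.97e-05). Mag, a myelin adhesion protein, differed by 1.46 ± 0.18, Mbp, myelin basic protein, by 1.41 ± 0.28, and Mog, a surface protein of the myelin sheath, by 1.27 ± 0.19. The third WHP accumbens pool had Mbp at 13.15 while the other accumbens pools were at 14.58 or above. Between 14 and 16 of the list were called when any pool pair or slide 2 was left out. The members that were not called were Fa2h at 0.07 ± 0.07, a fatty acid hydroxylase of myelin lipids, Pdgfra at 0.29 ± 0.13, the growth factor receptor of precursors, and Olig1 at 0.36 ± 0.15, a lineage transcription factor; they are named after their values were seen.

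Other glial and vascular lists held smaller or uneven differences. For their counts, 22.1% of all genes were called higher in the accumbens and 25.6% higher in the prefrontal cortex. Of 15 astrocyte markers 2 were higher in the accumbens and 1 in the prefrontal cortex (0 to 3 with a pool pair or slide 2 left out); Slc4a4, a bicarbonate cotransporter, differed by 0.89 ± 0.14, whereas Aldh1l1, a folate enzyme used to mark astrocytes, differed by -0.18 ± 0.07. Aqp4, the water channel of astrocyte end-feet, was 0.33 ± 0.07 higher on its brightest probe, while the other probes for the gene gave 0.16, -0.50 and -0.32. Microglial markers were higher in the accumbens in 5 of 15 cases, beside 22.1% of all genes, by 0.28 at most. That count was 1 without accumbens pair 1, prefrontal pair 2 or prefrontal pair 3, 2 without slide 2 and 3 without prefrontal pair 1. Other scalings gave 0 to 5. The microglial median of 0.19 became 0 with outlying backgrounds replaced and arrays centred on their median. Complement genes C1qa and C1qb, which microglia make, differed by 0.24 ± 0.05 and 0.27 ± 0.09. With a pair or slide 2 left out, Aldh1l1 lost its call in 6 of 7 fits (adjusted p up to 0.149, without accumbens pair 3) and C1qb in 4 (up to 0.104, without accumbens pair 1). Among 13 endothelial and pericyte markers 4 were higher in the accumbens, including Kdr, a receptor of vascular growth factor, at 0.63 ± 0.15.

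In the list of choroid plexus and ependyma, 3 of 11 genes were higher in the accumbens, near the share of all genes (22.1%). All 3 were of ciliated cells, and no gene of the list was higher in the prefrontal cortex. Tmem212, a gene of ciliated cells, had levels of 9.58, 9.47 and 9.11 in WHP and 8.51, 10.26 and 8.85 in WLP accumbens pools against 7.24 to 8.22 in the prefrontal pools. Its difference was 1.67 ± 0.29 (3.18-fold). Foxj1, the master regulator of motile cilia, differed by 1.07 ± 0.31, and Drc12, a dynein regulatory subunit, by 1.23 ± 0.28. Without prefrontal pair 3, Foxj1 was not called (adjusted p = 0.0721). Rsph1, a protein of motile cilia in the same list, was not called at 0.10 ± 0.16 (95% interval -0.24 to 0.45) and is named after its value was seen. Ttr, the transthyretin gene that choroid plexus makes at very high level, stood at 8.92 to 10.62 in the accumbens. In the prefrontal pools it was 7.56, 17.48 and 7.54 in WHP and 7.35, 13.58 and 7.76 in WLP, so 2 prefrontal pools exceeded every accumbens pool and the other prefrontal pools lay below all of them. Its difference was -0.72 ± 1.64. Without prefrontal pair 2, which holds both of these pools, or without slide 2, 7 of the 11 members of the list were called higher in the accumbens. Of the 13 meningeal and fibroblast genes none was called (1 without prefrontal pair 1), and their mean level ranged from 0.97 to 3.43 in the accumbens and 1.1 to 2.75 in the prefrontal pools. The list medians by slide were -0.74, 1.23 and 0.86. The part of meningeal or choroid tissue in the other differences was not tested.

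Immediate early genes, which neurons transcribe within minutes of activity, were higher in the prefrontal cortex. Of 16 tested, 14 were called higher in the prefrontal cortex, against 25.6% of all genes, and none in the accumbens. The median was -1.03, beside -0.008 for all genes. Arc, a cytoskeletal protein of active synapses, had levels of 10.48, 9.55 and 9.95 in WHP and 10.48, 11.31 and 10.81 in WLP accumbens pools. Prefrontal pools had 13.79, 12.02 and 12.92 in WHP and 12.64, 13.63 and 13.42 in WLP. No accumbens pool reached a prefrontal one. The difference was -2.64 ± 0.34 (6.23-fold, adjusted p = 8.6e-05). Egr2, a zinc finger transcription factor, had 7.79, 7 and 7.72 in WHP and 7.09, 8.69 and 7.98 in WLP accumbens pools. In the prefrontal pools it had 10.83, 9.36 and 9.84 in WHP and 9.61, 10.59 and 10.47 in WLP, a difference of -2.41 ± 0.35. The second WLP accumbens pool was the highest of its area for Arc and Egr2, and the second WHP prefrontal pool the lowest of its area. The orphan nuclear receptor genes Nr4a1 and Nr4a3 differed by -1.88 ± 0.28 and -1.75 ± 0.20. Fos, the best known of the group, had accumbens levels of 8.39 to 9.89 and prefrontal levels of 8.95 to 10.26, which overlap, and differed by -0.78 ± 0.26. Egr3 and Jun, 2 further transcription factors, were not called and had -0.11 ± 0.06 and -0.04 ± 0.10. Fos, Egr3 and Jun are named after their values were seen. In every setting that left out a pool pair or slide 2, 13 or 14 of the 16 were called. Bdnf, a neurotrophin whose transcription also follows activity, was in the peptide list and differed by -1.38 ± 0.13.

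Promoters of the early genes are shown because the members moved together and because the elements that drive their fast induction are well known. RefSeq promoters (GRCr8, a newer build than the rn4 coordinates of the probes) reaching from 250 bases before to 50 bases after the transcription start were matched for 12 of the 17 listed genes. Only the 250 bases before the start were searched for motifs. The full cyclic AMP response element, TGACGTCA on either strand, was found in 3 of the 12 (25%) and in 466 of all 27457 promoters in the table (1.7%). The CArG box, to which serum response factor binds, was found in 2 of the 12 (16.7%) and in 412 of all (1.5%). A match describes letters and not a bound site, and promoters without these exact letters may hold variants. Of the sequences below, 150 bases each on the gene's strand, Egr2 has the CArG box in capitals, starting 83 bases before the transcription start, and Btg2, Dusp1 and Ier2 have TGACGTCA in capitals, starting 201, 124 and 66 bases before it. They lie at chr20:21054442-21054591 (minus strand), chr13:48087752-48087901 (minus strand), chr10:17184703-17184852 (plus strand) and chr19:40399223-40399372 (plus strand).
Egr2: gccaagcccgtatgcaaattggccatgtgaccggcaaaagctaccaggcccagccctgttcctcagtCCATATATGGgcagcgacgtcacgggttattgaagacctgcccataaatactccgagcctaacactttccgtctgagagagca
Btg2: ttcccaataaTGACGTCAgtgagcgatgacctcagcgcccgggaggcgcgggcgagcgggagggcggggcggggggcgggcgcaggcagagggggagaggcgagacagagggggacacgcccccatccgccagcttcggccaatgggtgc
Dusp1: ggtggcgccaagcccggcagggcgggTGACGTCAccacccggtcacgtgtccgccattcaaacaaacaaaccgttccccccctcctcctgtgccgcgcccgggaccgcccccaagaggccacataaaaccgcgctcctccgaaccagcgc
Ier2: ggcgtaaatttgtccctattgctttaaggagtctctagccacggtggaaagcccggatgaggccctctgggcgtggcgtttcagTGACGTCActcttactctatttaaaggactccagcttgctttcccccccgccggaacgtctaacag
The 4 genes were picked for their motif. Btg2, an antiproliferative cofactor, differed by -1.24 ± 0.19, Dusp1, a phosphatase of mitogen-activated kinases, by -0.82 ± 0.12, and Ier2, a small nuclear protein, by -0.60 ± 0.14. Matched early genes without either motif in the window ran from -0.30 for Fosl2 to -1.88 for Nr4a1.

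Interneuron genes pointed both ways, as did neuropeptides. Of 18 interneuron markers 7 were higher in the accumbens and 4 in the prefrontal cortex, beside 22.1% and 25.6% of all genes. Vip, the vasoactive intestinal peptide of a class of cortical interneurons, had levels of 10.41, 9.53 and 10.89 in WHP and 9.29, 10.53 and 10.45 in WLP accumbens pools. The prefrontal pools had 13.22, 12.06 and 12.93 in WHP and 12.16, 12.67 and 12.89 in WLP, all above, and the difference was -2.47 ± 0.32 (5.55-fold, adjusted p = 8.26e-05). Cort, the cortistatin precursor of cortical interneurons, differed by -2.38 ± 0.27. Sst, the somatostatin precursor found in interneurons of both areas, differed by -0.39 ± 0.13. On the accumbens side were Calb2, the calcium buffer calretinin, at 1.13 ± 0.21, and Slc32a1, the vesicular GABA transporter of all inhibitory neurons, at 1.03 ± 0.19. Tac3, the neurokinin B precursor, differed by 0.98 ± 0.13. Gad2, which makes GABA, differed by 0.47 ± 0.18, and its sister gene Gad1 was not called on its brightest probe at 0.17 ± 0.14. Dimmer Gad1 probes gave 0.15, not called, and 0.71 ± 0.13, called (adjusted p = 0.000942). Gad2 and Sst each lost the call in 4 of 7 fits with a pair or slide 2 left out (adjusted p up to 0.197 and 0.0783, both without prefrontal pair 3). Of 24 opioid and other peptide precursors, 8 were higher in the accumbens (5 without prefrontal pair 3) and 7 in the prefrontal cortex. These counts were not far from the shares of all genes (22.1% and 25.6%). Besides galanin, the accumbens group included Pnoc, the nociceptin precursor, whose pools spanned 11.28 to 11.75 in the accumbens and 10.08 to 10.62 in the prefrontal cortex (1.26 ± 0.11). Grp, gastrin-releasing peptide, was on the prefrontal side at -1.08 ± 0.18.

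Of 23 peptide receptor genes 6 were higher in the accumbens and 5 in the prefrontal cortex, near the shares of all genes (22.1% and 25.6%). Npy1r, the neuropeptide Y receptor, differed by -1.21 ± 0.11 and Crhr1, the receptor of corticotropin-releasing hormone, by -0.66 ± 0.09. Oprm1, the mu-opioid receptor gene, was higher in the accumbens by 0.38 ± 0.08, and Tacr1, the substance P receptor gene, by 0.51 ± 0.10. Of 38 genes of dopamine and cyclic AMP signalling, 5 were higher in the accumbens, 12 in the prefrontal cortex and 21 were not called. The shares of all genes in these directions were again 22.1% and 25.6%. On the accumbens side were Slc18a2, the vesicular monoamine transporter, at 1.13 ± 0.26, Ddc, aromatic amino acid decarboxylase, at 1.07 ± 0.16, and Th, tyrosine hydroxylase, at 0.43 ± 0.15. Th was not called in 4 of 7 fits with a pair or slide 2 left out (adjusted p up to 0.306, without slide 2). Rgs4, a brake on G protein signalling, was on the prefrontal side at -1.07 ± 0.17, as were the phosphodiesterase gene Pde2a at -0.83 ± 0.14 and the kinase subunit gene Prkar2b at -0.64 ± 0.10.

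Fast transmitter receptors differed by subunit. For the counts below, 25.6% of all genes were called higher in the prefrontal cortex and 22.1% higher in the accumbens. Of 19 ionotropic glutamate receptor genes 6 were higher in the prefrontal cortex, led by the AMPA subunits Gria2 (-0.89 ± 0.11) and Gria3 (-0.81 ± 0.18) and the NMDA subunit Grin2a (-0.79 ± 0.16). Higher in the accumbens were 3, among them Grin3a, an NMDA subunit, at 0.34 ± 0.05, and Gria4 at 0.39 ± 0.08, for which another probe gave -0.42. Of 13 metabotropic receptor and scaffold genes 7 were higher in the prefrontal cortex and 2 in the accumbens. The prefrontal side included the scaffolds Homer1 at -1.24 ± 0.15, Shank3 at -0.87 ± 0.10 and Shank2 at -0.82 ± 0.11. A second Homer1 probe gave -2.53. Of 22 genes of GABA receptors and GABA handling, 7 were higher in the accumbens and 6 in the prefrontal cortex, not far from the shares of all genes (22.1% and 25.6%). Gabrg1, a subunit found in glia and some subcortical neurons, had 9.86 to 10.64 in the accumbens and 9.03 to 9.61 in the prefrontal cortex (0.95 ± 0.09), while Gabrd, the subunit of tonic inhibition, had -1.25 ± 0.26 and Gabra5 -0.79 ± 0.06. Of 20 serotonin and acetylcholine receptor genes, 8 were higher in the prefrontal cortex and 1 in the accumbens. The nicotinic subunit gene Chrna5 differed by -1.02 ± 0.12 (-1.59 with an offset of 10 and -2.78 from the scanner's processed signals), the muscarinic receptor gene Chrm4 by -0.98 ± 0.12 and the serotonin receptor gene Htr2a by -0.71 ± 0.09, against 0.53 ± 0.14 for Htr7. In the adenosine and cannabinoid list, 5 of 15 were higher in the prefrontal cortex and 3 in the accumbens, not far from the shares of all genes. The prefrontal side was headed by the lipid-degrading enzymes Faah (-0.79 ± 0.10) and Mgll (-0.71 ± 0.15). The nucleoside transporter gene Slc29a1 was higher in the accumbens at 0.63 ± 0.12.

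Potassium channel and calcium signalling genes leaned to the prefrontal side. Of all genes, 25.6% were called higher in the prefrontal cortex and 22.1% higher in the accumbens. Of 37 potassium channel genes 20 were higher in the prefrontal cortex and 6 in the accumbens, with a median of -0.27. Kcnv1, a silent subunit of cortical neurons that is also in the cortical list, differed by -2.04 ± 0.31, and Kcnh3, a voltage-gated channel of forebrain neurons, by -1.85 ± 0.22. Kcnh3 levels were 8.2 to 9.5 in the accumbens and 10.4 to 11.14 in the prefrontal cortex, without overlap. The inward rectifier genes Kcnj6 and Kcnj4 differed by -1.16 ± 0.14 and -1.04 ± 0.21. Kcna2 and Kcnc1, channels of myelinated axons and of fast-spiking cells, were higher in the accumbens at 0.62 ± 0.12 and 0.61 ± 0.09. Sodium and calcium channel genes were higher in the prefrontal cortex in 10 of 27 cases and in the accumbens in 5 (3 without prefrontal pair 3). These counts lay nearer the shares of all genes, and the median was -0.12. On the prefrontal side were Cacng3, an AMPA receptor auxiliary subunit, at -1.17 ± 0.10 and Cacnb3, a calcium channel beta subunit, at -0.95 ± 0.10. Of 23 calcium and kinase signalling genes 15 were higher in the prefrontal cortex and 5 in the accumbens, with a median of -0.56. Nrgn, the calmodulin-binding neurogranin, had accumbens levels of 11.32 to 12.72 and prefrontal levels of 13.67 to 14.37 (-1.81 ± 0.24). Itpka, an inositol phosphate kinase of dendritic spines, differed by -1.58 ± 0.31. The protein kinase C gene Prkcd was on the accumbens side at 0.59 ± 0.22, a call lost in 6 of 7 fits with a pair or slide 2 left out (adjusted p up to 0.147, without prefrontal pair 3). Axon guidance genes and cadherins were higher in the prefrontal cortex in 14 of 26 cases and in the accumbens in 3. The prefrontal side was led by the ephrin receptor genes Epha7 (-1.05 ± 0.11) and Epha4 (-0.92 ± 0.14). Unc5d, a netrin receptor gene, was higher in the accumbens at 0.68 ± 0.09.

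**Figure D4:**
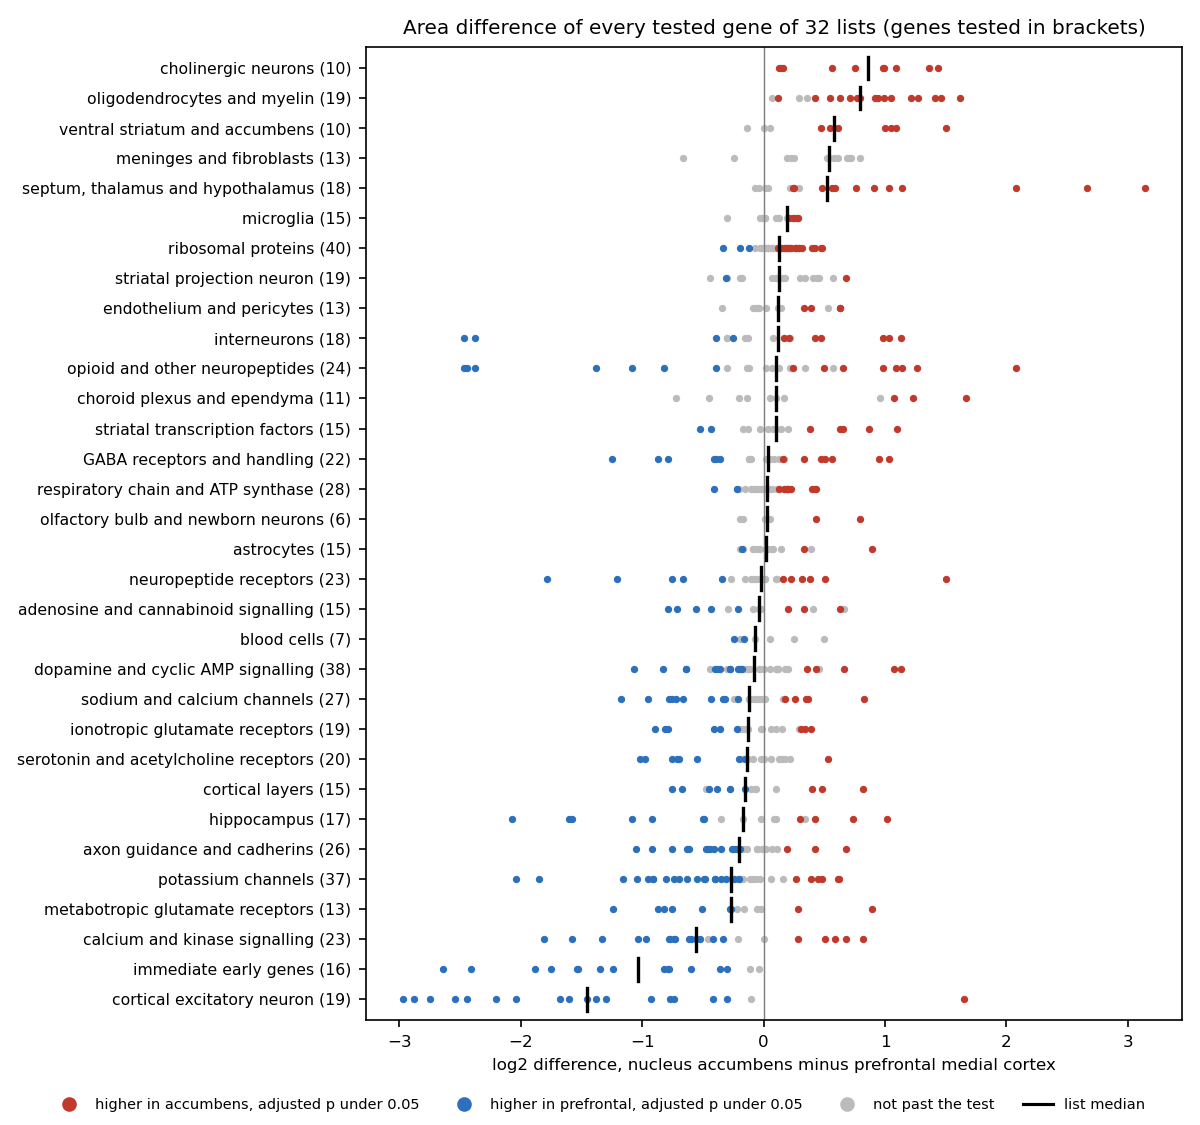
Log2 difference (accumbens minus prefrontal) of every tested gene of 32 lists, one row per list with the number of genes tested in brackets; red points passed the test higher in the accumbens, blue points higher in the prefrontal cortex, grey points did not pass, and the black bar is the list median. Medians run from -1.45 for cortical excitatory neurons and -1.03 for immediate early genes to 0.79 for oligodendrocytes and 0.86 for cholinergic neurons.

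The genes with the largest differences among those whose pools did not overlap included several outside the lists. On the prefrontal side were Adra1d, the alpha-1D adrenoceptor gene, at -2.84 ± 0.26 (7.16-fold), Ccn3, a matricellular growth regulator, at -2.66 ± 0.31, and C1ql3, a secreted synaptic organiser, at -2.55 ± 0.24. Ptgs2, the inducible cyclooxygenase, had 6.6 to 7.17 in the accumbens and 8.55 to 9.54 in the prefrontal cortex (-2.45 ± 0.20). Cyp11b1, a steroid hydroxylase gene, differed by -2.42 ± 0.25 and Nptxr, the neuronal pentraxin receptor, by -2.32 ± 0.20. On the accumbens side, Nr2f2, an orphan nuclear receptor of ventral and caudal forebrain, had levels of 10, 10.32 and 10.34 in WHP and 10.52, 10.06 and 10.51 in WLP accumbens pools. In the prefrontal pools it had 8.29, 8.57 and 8.56 in WHP and 8.7, 8.25 and 8.44 in WLP. Its pools were tightly grouped and far apart, with a difference of 1.82 ± 0.12 (3.54-fold, adjusted p = 4.88e-06). Cdhr4 and Fam216b differed by 2.01 ± 0.45 and 1.67 ± 0.32. Both were highest in the second WLP accumbens pool, which also had the highest Tmem212. Lpar1, a lysophosphatidic acid receptor of oligodendrocytes, was higher by 1.67 ± 0.20, Ret, a receptor of glial-derived growth factors, by 1.66 ± 0.20, and Hapln2, a matrix protein of nodes on myelinated axons, by 1.53 ± 0.17. Other Ret probes gave 0.87 and 0.09. Agt, the angiotensin precursor made by astrocytes, differed by 1.43 ± 0.26, Slc27a2, a fatty acid transporter, by 1.6 ± 0.24, and Ngb, the neuronal globin, by 1.38 ± 0.18.

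Whether the area difference depended on the strain was tested as an interaction. No probe passed in limma's interaction test: the lowest adjusted p was 1, and 526 of 29679 probes had an unadjusted p under 0.05. With 3 pools per strain and area this does not show that the areas differ alike in the strains. For Slc17a7 the difference of the areas was -2.89 in WHP and -3.05 in WLP pools, and for Gal it was 2.56 and 1.59.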

How the data were processed

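The 12 arrays hold mean spot and local background intensities of both dyes, deposited as scanner output that is neither background-corrected nor normalized, per the file headers (Feature Extraction 10.10.1.1). Intensities already processed by the scanner software, also per the file headers, served as an alternative. The deposited table of log2 ratios compares strains within arrays and was not used. In limma 3.58.1 (R 4.3.3), intensities were background-corrected by normexp with an offset of 50, loess-normalized within arrays with controls at weight 0 and Aquantile-normalized between the 12 arrays. Channels were then separated and averaged to log2 levels of 12 pools (non-uniform spots were left out). A probe was tested when well above background in at least 8 of the 12 channels of an area, which 29679 of 41012 probes were. lmFit and eBayes fitted area and strain with the pool pair as a random block (correlation 0.148), two-sided. The call was tried on simulated pools with independent noise and few changed probes. That trial does not cover pools that share arrays, or differences as widespread as those found here. Same-numbered pools of the areas share a slide, but their deviations correlated at only 0.12, 0.01 and 0.01, so the number was not treated as pairing.

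RefSeq accessions or symbols named 21291 probes (16236 genes); each gene is given by its brightest tested probe, at rn4 coordinates per the file headers. Named are the 15 largest differences per direction without overlap of pools, up to 4 called members per list and direction, and the defining striatal and cortical markers; some genes are not reported here. Members and lists were chosen with earlier results of these data known. The number of arrays limits the precision. Alternatives covered scaling, background, filter, block, dye, strain, slide and left-out pool pairs.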

Additional observations from a re-analysis of the deposited data

Results flagged for a closer look

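In each area, every named gene reported here and every list was searched for a pool far from the other 5 (Dixon's ratio above its 95% critical value). This marked 21 of 426 groups of 6 pools, and chance alone marks about 1 in 20.

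Among accumbens pools, the second WHP pool was lowest for Adra1d (7.26), Homer1 (8.93), Itpka (11.15), Kit (6.51) and Meis2 (12.09). The same pool was lowest in the mean level of the interneuron list (1.67), the potassium channel list (0.57) and the axon guidance and cadherin list (0.47), in log2 units above the median probe of the pool. Its means of some other lists were also at an end of the accumbens range, though Dixon's ratio did not mark them. They were highest for meningeal and fibroblast genes (3.43) and cholinergic markers (1.48), and lowest for striatal projection neuron (1.57) and cortical excitatory markers (0.38). The third WHP accumbens pool was highest for Cycs (14.33) and lowest for Mbp (13.15) and Rpl15 (14.14). The first WLP accumbens pool was highest for Kcnj8 (9.77), the second for Nr4a3 (9.00) and the third for Rps28 (15.76).

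Among prefrontal pools, the second WHP pool was lowest for Kcnj4 (9.22) and Mgll (10.03) and highest in the mean level of the choroid plexus and ependyma list (2.12). The first WLP prefrontal pool was lowest for Gria2 (12.25), highest for Th (7.88), and highest in the mean level of the olfactory bulb and newborn neuron list (1.16) and of the endothelium and pericyte list (1.76). No explanation was tested for any of these values.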

How the results depend on the processing

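With 14193 probes called, most alternatives kept the count within 1.5 times; leaving out a pool pair gave 10852 to 13492 (5427 to 6962 higher in the accumbens, 5425 to 6530 in the prefrontal cortex; over 2-fold 202 to 269 and 290 to 352). Counts moved further under these alternatives. Centring each array on its median A left 12 calls (11 and 1; over 2-fold 9 and 1), and scaling channels to their 75th percentile left 1629 (644 and 985). The first array of prefrontal pool pair 1 has 17 red and 7 green spots with a local background over 3 times the array median (up to 15547 and 33195 against 40 and 31). With such readings replaced, an alternative chosen after seeing the data, the same scalings gave 4930 and 9550 calls (544 prefrontal over 2-fold), and 11068 and 5411. The WHP pools alone gave 6781 (3262 and 3519), and the scanner's processed signals 889 and 929 over 2-fold. The pool number as a replicate block gave 15923, which is within 1.5 times. Of the 568 probes over 2-fold, 7 stayed called under median A, 465 under the 75th percentile and 534 or more under every other alternative that tested the same probes.

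For the 186 named genes, 4622 of 5205 results under 28 alternatives kept direction and call, 573 lost the call (284 under the first 2 scalings) and 3 gained it. A pool pair or slide 2 left out ended the call of 37 of the 186. Directions reversed for Adora1 (-0.01, backgrounds replaced and median A), Csf1r (-0.03, within slide 3), Dcc (-0.03, 75th percentile), Drd1 (0.06, without slide 2), Drd2 (-0.01 to 0.19 with a pair left out), Ppp1r1b (-0.04, WHP pools; -0.14 to 0.43 with a pair left out) and Rpl15 (0.02, median A). Within single slides, only called genes were checked for a reversal, so uncalled genes are not listed for it. The list of striatal projection neuron markers, most of them uncalled, had a median of -0.55 within slide 2, beside 0.13 in the fit. The causes were not tested, apart from the background readings.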

Other observations

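Ribosomal protein genes, which every cell uses, had small differences. Of 40 tested, 19 were higher in the accumbens and 3 in the prefrontal cortex (22.1% and 25.6% of all genes). Without prefrontal pair 3 the accumbens count was 11, and without slide 2 the counts were 10 and 1. Other scalings gave 6 to 19 higher in the accumbens. The median was 0.13 and became -0.01 with outlying backgrounds replaced and arrays centred on their median. Rps15 and Rpl22 differed by 0.48 ± 0.14 and 0.47 ± 0.05, while Rpl4 had -0.33 ± 0.07. Rpl15 had -0.12 ± 0.04 on its brightest probe and 0.23 on another. With a pool pair or slide 2 left out, Rpl15 lost its call in 5 of 7 fits (adjusted p up to 0.129) and Rps15 in 2 (up to 0.111), both highest without slide 2. Of 28 genes of the respiratory chain and ATP synthase, 10 were higher in the accumbens (6 without slide 2) and 2 in the prefrontal cortex (1 to 4 with a pair or slide 2 left out). The median of 0.03 lay between -0.12 and 0.22 under the alternatives, so its direction depends on the scaling. Cox5a, a cytochrome oxidase subunit, differed by 0.43 ± 0.06 and Uqcrc2, a subunit of the third complex, by -0.41 ± 0.05.

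Of 17 genes known as hippocampal markers, 7 were higher in the prefrontal cortex and 4 in the accumbens (1 without slide 2), beside 25.6% and 22.1% of all genes. Dkk3, a secreted Wnt pathway modulator, differed by -2.07 ± 0.19. Lhx9, a LIM homeodomain factor, was higher in the accumbens at 0.74 ± 0.19 (adjusted p = 0.0509 without slide 2). Olfactory bulb and newborn neuron markers were higher in the accumbens in 2 of 6 cases, Igfbpl1 (0.79 ± 0.27) and Th (0.43 ± 0.15), beside 22.1% of all genes. Each lost its call in 4 of 7 fits with a pair or slide 2 left out (adjusted p up to 0.145 for Igfbpl1, without prefrontal pair 3, and 0.306 for Th, without slide 2), and the count was 0 without accumbens pair 2 or prefrontal pair 3. Of 7 blood cell genes none was higher in the accumbens, and Alas2 and Slc4a1, both of red cells, were lower there, at -0.24 ± 0.09 and -0.16 ± 0.05. Each of these calls was also lost in 4 of 7 such fits (adjusted p up to 0.187 for Alas2, without prefrontal pair 3, and 0.0839 for Slc4a1, without prefrontal pair 1). Neither was called without accumbens pair 2 or prefrontal pair 1, and 1 blood cell gene was called higher in the accumbens without accumbens pair 2.

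Probes of the same gene could disagree in direction or size. Uqcrfs1 had -0.22 on its brightest probe and 0.31 on another. Arpp21, a cyclic AMP-regulated phosphoprotein of striatal and cortical neurons, had -0.03 on its brightest probe and -1.65 and -0.59 on others. Which transcripts these probes detect was not tested.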
